A study of Mus musculus with 2 samples.

Results

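The growth factor receptor tyrosine kinases measured here were the ErbB receptors *Egfr*, *Erbb2*, *Erbb3* and *Erbb4*, the fibroblast growth factor (FGF) receptors *Fgfr1*, *Fgfr2* and *Fgfr3*, the neurotrophin receptors *Ntrk2* and *Ntrk3*, and the hepatocyte growth factor receptor *Met*. These 10 genes were taken by symbol, with no threshold on their values, from the 23951 named genes present in both RNA-seq libraries of mouse optic nerve at postnatal day 12 (P12). Tcf7l2 is a high-mobility-group (HMG) transcription factor of the oligodendrocyte (OL) lineage, and the study asked which transcripts differ when it cannot bind DNA. The control library came from animals with 1 floxed allele (Tcf7l2 c/+; OLig1-cre) and the mutant library from animals with both alleles floxed (Tcf7l2 c/c; OLig1-cre, here *Tcf7l2*ΔHMG), so both genotypes carried the Cre and differed in the dose of the excised HMG-box exon. *Olig1*-Cre acts in the OL lineage, whereas whole nerve also holds astrocytes, microglia, vessels and meninges. The colony was of mixed strain background, and the study used both sexes, but the number and sex of the animals behind each library are not given in the sources used here.

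There was 1 library per genotype, so no difference below has a replicate check or a p-value. The intervals printed are those the authors' Cufflinks run gave for each gene, and they cover sampling within a library only. Levels are FPKM (fragment counts scaled by transcript length and by the size of the library), which can be compared between genes because they are per length. The log2 ratio is that of *Tcf7l2*ΔHMG over control on the log2(FPKM + 0.1) scale, which understates the change of low genes. A gene entered the comparison when its estimate had status OK in both libraries and reached 1 FPKM in at least 1 of them, and a fold change above 1.5 counted as altered. Among the 14199 genes compared, 15.4% were higher in the mutant and 8.52% were lower past this fold, with a median log2 ratio of 0.05. Steps in the interval bounds placed the depth near 27624000 fragments for control and 39938000 for the mutant, a ratio of 1.45. *Tcf7l2* itself stood at 17.8 FPKM in control and 14.6 in the mutant, a gene-level value that does not check the labels because transcripts without the HMG exon are still counted.

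Receptor tyrosine kinases span the membrane once, dimerise when ligand binds, and phosphorylate each other and adaptor proteins that feed the Ras–ERK and PI3K–Akt cascades. In the OL lineage, neuregulins act through ErbB3 and ErbB4, FGFs act on precursors and differentiating cells, and neurotrophins act through TrkB and TrkC. ErbB3 is the ErbB member whose kinase is weak, so that it signals mainly as a partner of another ErbB receptor.

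*Egfr* and *Erbb3* differed most between the libraries, and the catalytic loops of the ErbB genes are printed as a stretch that all 10 members hold. Each line is the 24 coding bases of the loop in the GENCODE M21 transcript on GRCm38, 5′ to 3′ on the coding strand, and the capitals mark the codon at the catalytic aspartate position.
Erbb2, exon 21 of 27, chr11:98434247-98434270, plus strand: cacaggGACctagctgcccgaaac
Erbb3, exon 21 of 28, chr10:128572533-128572556, minus strand: cataggGACcttgcgctccggaat
Erbb4, exon 21 of 28, chr1:68080739-68080762, minus strand: catcggGATctggcagcccgcaat
Egfr, exon 21 of 28, chr11:16904338-16904361, plus strand: caccgtGACttggcagccaggaat

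All 10 members held the loop, and in all 10 the capitalised codon encoded aspartate. *Erbb3* shared 17 of the 24 bases with *Erbb2*, 17 with *Erbb4* and 15 with *Egfr*, so the 4 ErbB transcripts were not identical even in this conserved stretch. Identity in the loop did not always follow the families, since *Erbb2* shared 20 bases with *Fgfr3* and 20 with *Met*, but 16 with *Egfr*. Every member stood on 1 row in each library, and none was merged with a neighbouring gene.

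The receptors spanned a wide range of levels. The highest was *Ntrk2*, and it exceeded the lowest, *Met*, 181-fold in control and 200-fold in the mutant. The order in control ran *Ntrk2*, *Fgfr1*, *Fgfr2*, *Erbb3*, *Fgfr3*, *Ntrk3*, *Erbb4*, *Egfr*, *Erbb2* and *Met*, and of these neighbours only *Egfr* and *Erbb2* had overlapping intervals. In the mutant the order was *Ntrk2*, *Fgfr1*, *Fgfr2*, *Fgfr3*, *Ntrk3*, *Erbb3*, *Egfr*, *Erbb4*, *Erbb2* and *Met*, and only *Erbb4* and *Erbb2* overlapped. *Erbb3* thus stood 4th in control and 6th in the mutant, and *Egfr* stood 8th and 7th.

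**Figure D1:**
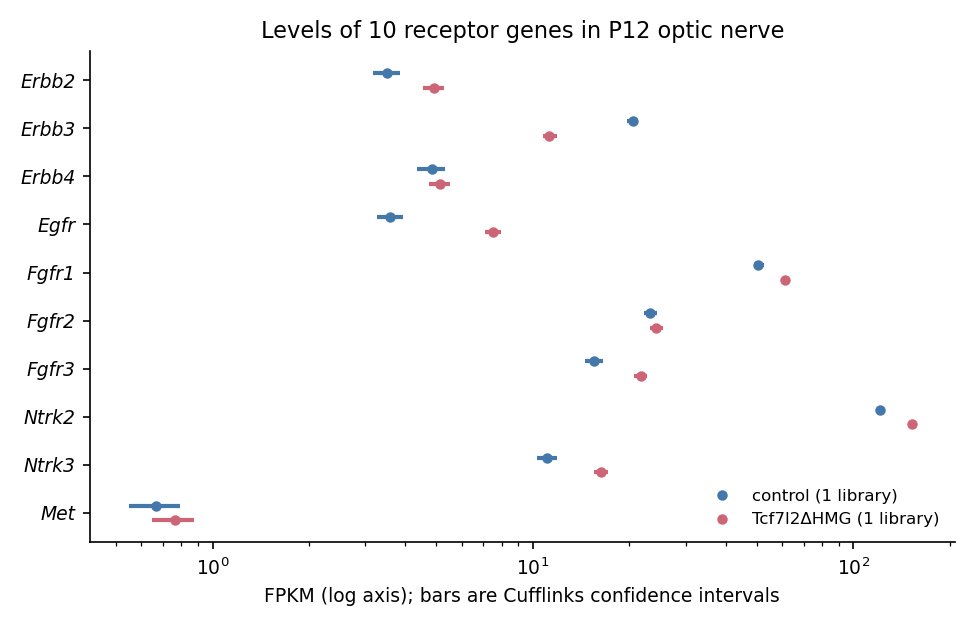
FPKM of each of the 10 receptor genes in the control and *Tcf7l2*ΔHMG library, on a log axis, with bars for the Cufflinks interval within each library (1 library per genotype). With the deposited scaling *Erbb3* is the only one of the 10 that is lower in the mutant (11.3 against 20.5 in control), and *Egfr* lies at 3.59 in control and 7.50 in the mutant.

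Of the 9 members compared (*Met* stayed under 1 FPKM in both libraries), 1 was higher past the 1.5-fold limit, 1 was lower and 7 lay within it. These counts stand beside the shares of 15.4% higher and 8.52% lower among all genes compared, and with 9 genes they are close to that background. With the deposited scaling 8 of the 9 lay above 0, and their median was 0.33 on the log2 ratio scale. Of all genes compared 54.6% lay above 0, as did 25 of the 36 other receptor tyrosine kinases compared. That direction depends on the scaling. When all rows, including unnamed assembled transcripts, were rescaled to a common sum, the median of all genes moved to −0.61 and *Egfr* alone of the 10 receptors stayed above 0. Such a rescaling shifts nearly all genes alike, so places relative to the median of all genes hardly change and are no separate check. Relative to that median 9 of the 10 were higher and *Erbb3* was lower under either scaling. After the rescaling *Fgfr2* (0.006) and *Erbb4* (0.04) lay close to the median. The share of altered genes that were higher in the mutant was 64.4% as deposited and 7.96% after that rescaling. Intervals of the 2 libraries were apart for 7 members and overlapped for *Erbb4*, *Fgfr2* and *Met*, but intervals were also apart for 52.4% of all genes compared.

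**Figure D2:**
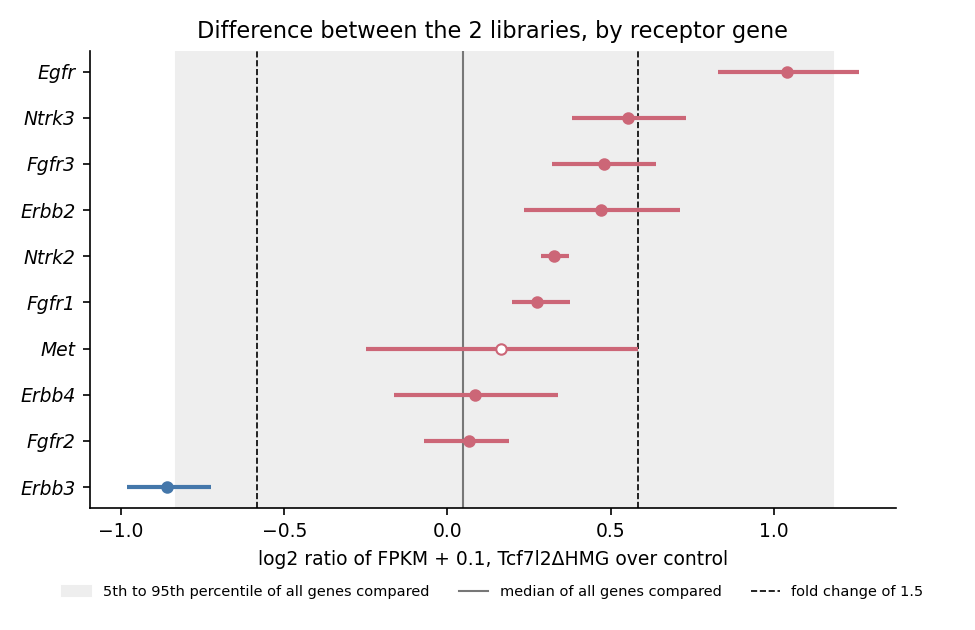
Log2 ratio of *Tcf7l2*ΔHMG over control for each receptor gene on the log2(FPKM + 0.1) scale, with bars from the extreme combinations of the Cufflinks intervals. The open point is *Met* (under 1 FPKM in both), the shaded band spans the 5th to 95th percentile of all genes (−0.83 to 1.18), and only *Erbb3* lies below that band; all points except *Egfr* fall below 0 when all rows are rescaled to a common sum.

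*Erbb3* encodes the neuregulin receptor that is found in OL-lineage and Schwann cells. Its level was 20.5 FPKM (interval 19.7 to 21.3) in control and 11.3 (10.7 to 11.9) in the mutant. The control value was 1.82-fold the mutant value and the log2 ratio was −0.86, or between −0.98 and −0.72 when both intervals were taken at their extremes. A lower ratio was found for 4.74% of all genes compared. In the mm9 coordinates of the files the control row ran over chr10:128004592-128026709, with ends within 8 bases of it in the mutant.

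The OL marker list moved in the same direction as *Erbb3*. All 10 OL markers were compared, 6 were lower past 1.5-fold and none was higher, with a median log2 ratio of −0.94. Their summed level was 13217 FPKM in control and 5726 in the mutant. *Mobp*, a myelin-associated protein, stood at 2959 FPKM in control and 719 in the mutant. Past the same fold 8.52% of all genes compared were lower. Of 6 oligodendrocyte precursor (OPC) markers 1 was lower and none higher, with a median of −0.27. With 6 genes that count is close to the share of all genes. The Schwann cell list did not move with *Erbb3* in the way of the OL list. Of its 6 genes 4 were compared, 1 was lower past 1.5-fold and the median was 0.15. With 4 genes this count is also close to the share of all genes. None of the OL, OPC or Schwann markers was listed at 0. In whole nerve, fewer cells of a type and less RNA per cell cannot be told apart, and the part of OL content in the *Erbb3* difference was not tested.

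*Egfr*, the receptor for EGF, TGFα and HB-EGF, is expressed by glial progenitors and by reactive astrocytes. It was measured at 3.59 FPKM (3.26 to 3.93) in control and 7.50 (7.07 to 7.95) in the mutant. This was 2.09-fold higher in the mutant, with a log2 ratio of 1.04 (0.83 to 1.26 from the interval extremes), and 93.5% of all genes compared had a lower ratio. The row spanned chr11:16652206-16813910 (mm9) in both libraries. With the deposited scaling, markers of several cell types other than OLs also lay higher in the mutant library. Other lists did not, with medians below 0 for OPC (−0.27), endothelial (−0.11) and mural (−0.04) markers. Of 10 astrocyte markers 2 were higher past 1.5-fold and none was lower, with a median of 0.27 and sums of 5513 and 6538 FPKM, a count near the 15.4% of all genes. *Gfap*, the astrocyte intermediate filament, was at 4059 and 4729 FPKM. Fibroblast markers had 3 of 8 higher (sums 1855 and 2806), neuronal markers 5 of the 7 compared (44.4 and 71.7) and red blood cell markers 5 of 5, with none lower in those 3 lists and none at 0. A pair of α-globin genes shared 1 merged row, and with that row counted once 4 of 4 red blood cell rows were higher (sums 163 and 403 FPKM). Keeping merged rows under their joined name left 2 red blood cell genes higher. With all rows rescaled to a common sum, the direction turned for astrocyte markers (0 higher, 2 lower) and fibroblast markers (0 higher, 1 lower). Under that scaling neuronal markers had 2 higher and 1 lower and red blood cell markers 2 higher and 0 lower. The 2 higher red blood cell genes were the α-globin pair on 1 shared row. The part of these cell types in the *Egfr* value was not tested.

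**Figure D3:**
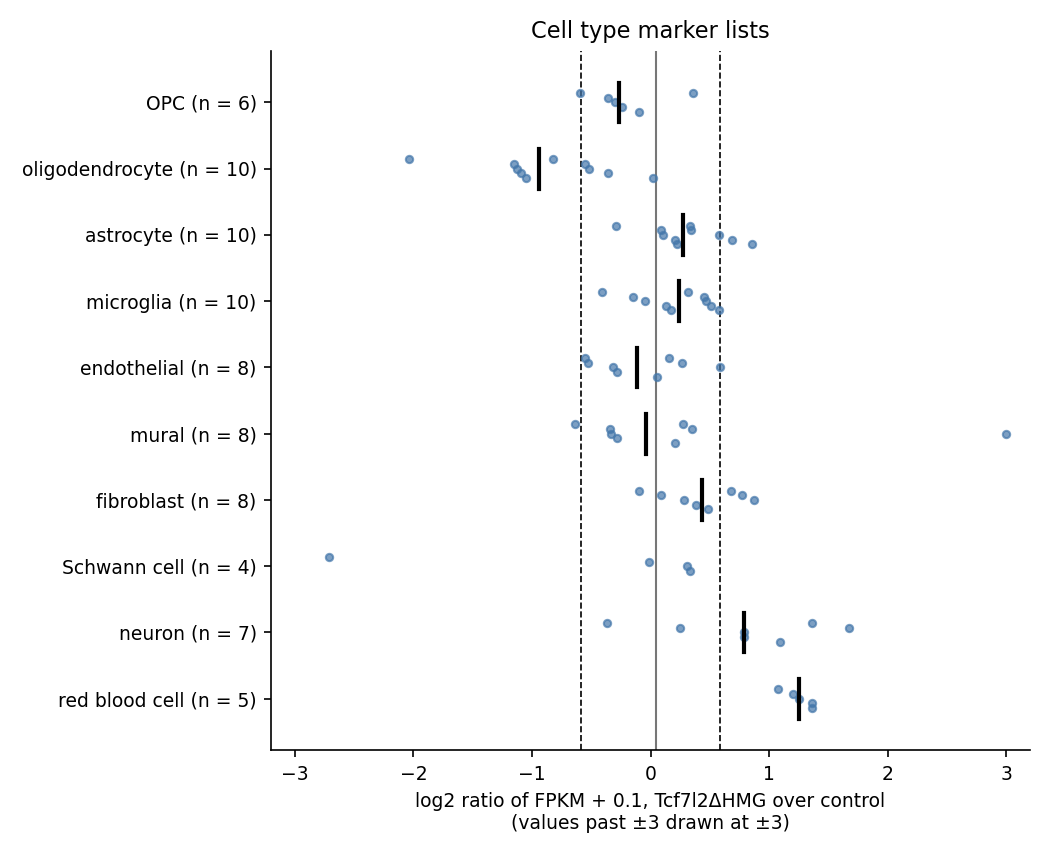
Log2 ratio of *Tcf7l2*ΔHMG over control for each marker gene compared, 1 row per cell type, with vertical bars at list medians and dashed lines at 1.5-fold. OL markers lie lowest (median −0.94) and red blood cell markers highest (median 1.25, with 2 of the 5 points from 1 shared row); with all rows rescaled to a common sum only the neuronal and red blood cell medians of those drawn stay above 0, and medians are drawn for lists with at least 5 genes.

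The sequence just upstream of the *Egfr* start is shown because *Egfr* is the member with the highest ratio, and Tcf7l2 is a DNA-binding factor. It is the 250 bases at chr11:16751953-16752202 (GRCm38.p6, plus strand, RefSeq), 5′ to 3′, with CpG dinucleotides in capitals.
Egfr: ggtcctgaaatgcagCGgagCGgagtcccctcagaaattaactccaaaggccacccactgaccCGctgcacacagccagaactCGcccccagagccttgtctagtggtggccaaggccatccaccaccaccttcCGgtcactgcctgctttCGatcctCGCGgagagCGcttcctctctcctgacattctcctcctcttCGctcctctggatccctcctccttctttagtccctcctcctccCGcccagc

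This stretch held 11 CpG and 60.8% G and C, against medians of 6 CpG and 52.4% over 32851 RefSeq windows. Fewer CpG than in *Egfr* were found in 64.4% of those windows. Windows of 300 bases around the start were found for 7 members (8 windows) and none was matched for *Erbb3*, *Fgfr1* or *Ntrk3*. Among these 8 windows that of *Egfr* held 15 CpG, more than that of *Fgfr2* (4) and fewer than all the others. The TCF/LEF core TCAAAG, searched on both strands, was in none of the 8 windows and in 16% of all windows. The Sox core ACAAAG, also on both strands, was likewise in none of the 8 and in 18.7% of all. A missing match says only that these letters are not in the window.

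The other ErbB genes differed less. *Erbb2*, the ligandless co-receptor, was at 3.51 FPKM (3.17 to 3.85) in control and 4.91 (4.55 to 5.26) in the mutant, with a log2 ratio of 0.47. *Erbb4*, the second neuregulin receptor, was at 4.83 FPKM (4.34 to 5.33) and 5.14 (4.75 to 5.52), and its intervals overlapped (log2 ratio 0.09). As shares of the summed ErbB FPKM, which no rescaling alters, *Erbb3* made up 63.2% in control and 39.1% in the mutant. *Egfr* made up 11.1% and 26.0%, *Erbb2* 10.8% and 17.0%, and *Erbb4* 14.9% and 17.8%. The *Erbb3* level was 5.72 times the *Egfr* level in control and 1.5 times in the mutant. Against *Erbb2* the corresponding multiples were 5.85 and 2.29, and against *Erbb4* they were 4.25 and 2.19. *Erbb3* was therefore the highest ErbB transcript in both libraries, but by a smaller margin in the mutant.

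**Figure D4:**
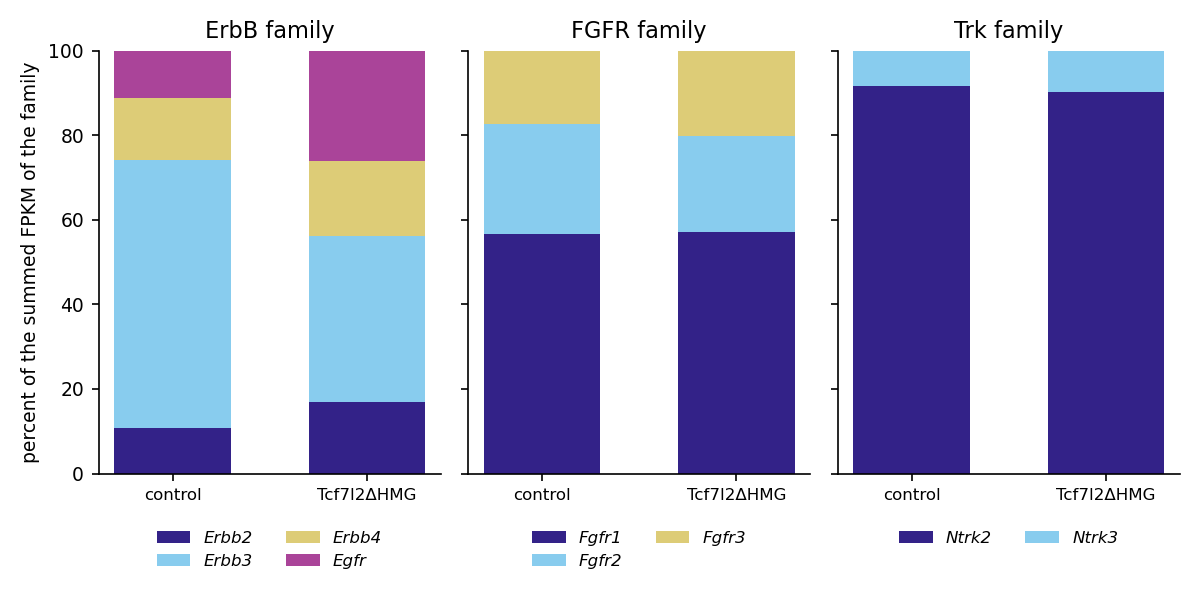
Percent of the summed FPKM of each receptor family taken by its members in the control and *Tcf7l2*ΔHMG library. *Erbb3* takes 63.2% and 39.1% of the ErbB sum and *Egfr* 11.1% and 26.0%, whereas the FGFR and Trk shares each differ by less than 4 percentage points.

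The FGF receptors kept their order, *Fgfr1* above *Fgfr2* above *Fgfr3*, in both libraries. *Fgfr1*, the receptor found most broadly in nervous tissue, was at 50.6 FPKM (48.9 to 52.7) in control and 61.2 (60.5 to 63.5) in the mutant, with a log2 ratio of 0.28. *Fgfr2*, which OLs also express, was at 23.2 (22.3 to 24.4) and 24.3 (23.2 to 25.4), so its intervals overlapped and its log2 ratio was 0.07. *Fgfr3*, which marks astrocytes and glial precursors, was at 15.5 (14.6 to 16.5) and 21.7 (20.6 to 22.8), with a log2 ratio of 0.48. The *Fgfr3* level was 0.669 times that of *Fgfr2* in control and 0.892 times in the mutant. As shares of the FGFR sum, *Fgfr1* took 56.7% and 57.1%, *Fgfr2* 26.0% and 22.7%, and *Fgfr3* 17.4% and 20.2%. None of the 3 passed 1.5-fold. *Fgfr3* was higher in the same library as the astrocyte markers, whose part in its value was not tested. In mm9 the rows lay at chr8:26629231-26686312 (*Fgfr1*), chr7:137305965-137410322 (*Fgfr2*) and chr5:34064373-34079717 (*Fgfr3*) in control, with ends moved by up to 217 bases in the mutant.

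*Ntrk2* encodes TrkB, the receptor for BDNF and NT-4, which exists as a full-length kinase and as a truncated form without the kinase that astrocytes express. The gene-level row, at chr13:58907930-59235331 (mm9), does not separate them. Its level was 121.1 FPKM (120.8 to 124.9) in control and 152.1 in the mutant, the latter just under its own interval of 152.4 to 156.4, with a log2 ratio of 0.33. *Ntrk2* alone accounted for 47.6% of the summed FPKM of the 10 receptors in control and 49.8% in the mutant. *Ntrk3*, which encodes the NT-3 receptor TrkC, was at 11.1 FPKM (10.3 to 11.9) and 16.3 (15.5 to 17.2), with a log2 ratio of 0.55, the member nearest below the 1.5-fold limit. Its row spanned chr7:85337000-85722724 (mm9) in both libraries, but was an assembled transcript model in control and a reference entry in the mutant. *Ntrk2* exceeded *Ntrk3* by 10.9 times in control and 9.32 times in the mutant.

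*Met*, the hepatocyte growth factor receptor, was the lowest member at 0.668 FPKM (0.550 to 0.789) in control and 0.761 (0.647 to 0.873) in the mutant. These intervals overlapped, and a difference was not detectable at this depth. Its row lay at chr6:17413957-17523980 (mm9).

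Few ligands of these receptors reached the level needed for a comparison. Of 11 ErbB ligands 5 were compared, 1 higher and 2 lower past 1.5-fold, with a median log2 ratio of −0.46. The shares among all genes compared were 15.4% higher and 8.52% lower, and 5 ligands are few to set beside them. With 1 FPKM required in both libraries 0 were higher and 1 was lower, since *Nrg1* and *Nrg4* reached it in 1 library only. *Tgfa*, a ligand of EGFR, was at 36.8 FPKM in control and 26.7 in the mutant (log2 ratio −0.46). *Hbegf*, which binds EGFR and ErbB4, was at 6.29 and 3.86 (−0.69). *Nrg1*, the neuregulin that binds ErbB3 and ErbB4, was at 0.362 and 1.09 (1.37), and *Nrg4*, an ErbB4 ligand, was at 1.63 in control and listed at 0 in the mutant. The 2 *Egfr* ligands with the highest levels were thus lower in the mutant library, in which *Egfr* was higher. Of 18 FGFs only 3 were compared. *Fgf1*, an FGF that binds all FGF receptors, was at 5.16 and 11.6 FPKM (1.16), *Fgf18* at 0.896 and 2.53 (1.40), and *Fgf3* at 13.8 and 5.98 (−1.19). All 5 ligands of the Trk receptors and Met stayed under 1 FPKM in both libraries.

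Of 16 co-receptors and binding partners 15 were compared, with 1 higher, 1 lower and a median log2 ratio of 0.26. Past the same fold 15.4% of all genes compared were higher and 8.52% lower. *Cd44*, a hyaluronan receptor that can present growth factors, was at 13.9 FPKM in control and 8.33 in the mutant (−0.73). *Kl*, the FGF co-receptor Klotho, was at 2.57 and 4.92 (0.91). The heparan sulphate proteoglycans *Sdc4* (62.6 and 83.5 FPKM) and *Sdc3* (46.4 and 55.5) were the highest of the list.

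With the deposited scaling most downstream genes lay within 1.5-fold, as did most of all genes compared, of which 15.4% were higher and 8.52% lower. All 28 adaptor and cascade genes were compared, 3 were higher past 1.5-fold and none was lower, and the median log2 ratio was −0.01. The 3 were *Hras*, a Ras GTPase, at 14.8 and 33.2 FPKM (1.16), *Shc1*, an adaptor, at 22.3 and 34.1 (0.61), and *Frs3*, an FGF receptor docking protein. *Frs3* was listed at 0 in control, where its row was merged with *Tomm6os*, and stood at 5.54 FPKM in the mutant, so no fold is given. The highest by the mean of both libraries were *Mapk3*, the kinase ERK1, at 205.8 and 195.8 FPKM, and *Ptpn11*, the phosphatase SHP2, at 63.6 and 54.3. None of the 16 inhibitors passed 1.5-fold in either direction, with a median of −0.02. *Lrig1*, which promotes degradation of ErbB receptors, was at 53.7 and 67.1 FPKM (0.32), and *Spred1*, an inhibitor of Ras–ERK signalling, was at 19.6 and 17.1. Of 12 genes known to respond to ERK 11 were compared and none passed 1.5-fold, with a median of −0.10. The inhibitor and ERK-responsive lists are not independent, since *Spry1*, *Spry2*, *Spry4* and *Il17rd* are in both. *Ccnd1*, the cell cycle regulator cyclin D1, was at 55.2 and 72.7 FPKM (0.40), and *Phlda1* at 24.9 and 22.9 (−0.12). The study also counts *Ccnd1* among the Wnt-responsive genes targeted by Tcf7l2, and reports it as upregulated in the mutant nerve. Here *Ccnd1* was 1.32-fold higher with the deposited scaling, which is short of the 1.5-fold limit that the study's own plot used. With all rows rescaled to a common sum, 16 of the 28 adaptor and cascade genes, 9 of the 16 inhibitors and 8 of the 11 ERK-responsive genes were lower past 1.5-fold, so these counts hold for the deposited scaling only.

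**Figure D5:**
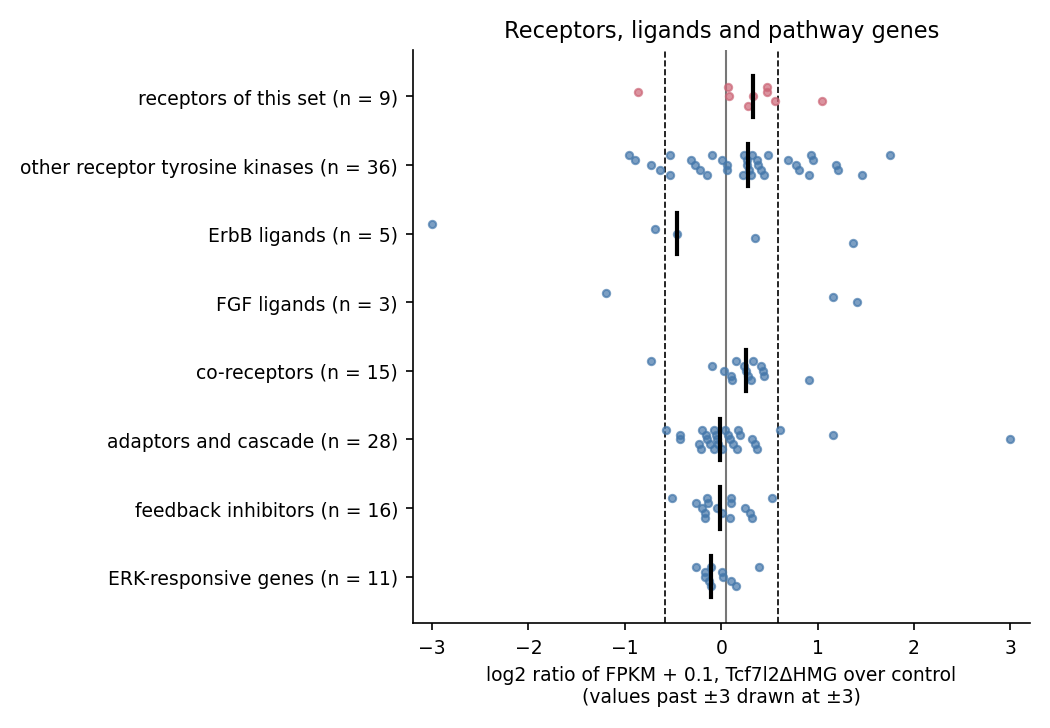
Log2 ratio of *Tcf7l2*ΔHMG over control on the log2(FPKM + 0.1) scale for each gene compared, by role, with black bars at medians of lists of at least 5 genes and dashed lines at 1.5-fold. Inhibitors (n = 16) and ERK-responsive genes (n = 11) lie entirely within 1.5-fold as deposited, whereas other receptor tyrosine kinases range from −0.96 to 1.75; with all rows rescaled to a common sum every median drawn is below 0.

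The other receptor tyrosine kinases serve as the comparison for the 10 receptors. Of 44 such genes 36 were compared, 10 were higher past 1.5-fold and 4 were lower, with a median log2 ratio of 0.28 beside 0.33 for the 9 growth factor receptors. Among all genes these shares were 15.4% and 8.52%. The count higher was 5 when both libraries had to reach 1 FPKM and 3 at a minimum of 5 FPKM, and with all rows rescaled to a common sum 2 were higher and 14 lower. *Tyro3*, a TAM family receptor of myelinating glia, was at 49.2 FPKM in control and 25.3 in the mutant (−0.96). *Ephb1*, an ephrin receptor, was at 36.8 and 19.8 (−0.89), and *Fgfr4*, the remaining FGF receptor, at 2.57 and 1.51 (−0.73). Those higher by the widest margin were *Insrr* (0.384 and 1.53), *Epha5* (0.544 and 1.68) and *Epha8* (0.514 and 1.32), all of them low. The highest by the mean of both libraries were *Ddr1*, a collagen receptor of OLs, at 145.7 and 120.6 FPKM (−0.27), and *Csf1r*, the microglial growth factor receptor, at 39.0 and 48.6 (0.32). The 4th lower gene was *Tie1*, an endothelial receptor, at 11.3 and 7.24 FPKM (−0.63), named after its value was seen because it completes the count. *Erbb3* (−0.86) lay between *Ephb1* and *Fgfr4* in this order, and *Egfr* (1.04) lay below *Epha8* (1.21).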

How the data were processed

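Total RNA was isolated with Trizol from P12 optic nerves, and libraries were made with an Illumina RNA-seq kit and sequenced on an Illumina HiSeq instrument. The authors deposited 1 table of gene-level FPKM values per library, made with TopHat and Cufflinks on mm9 (versions and strand setting not given in the sources used here), with a confidence interval and a status for each row. Rows without a gene name, assembled transcripts, took 70.7% of summed FPKM in control and 80.7% in the mutant and stayed out of the comparisons. Rows naming several genes were split, and rows were summed per symbol. Log2 ratios used a pseudocount of 0.1, and genes were compared at status OK in both libraries and at least 1 FPKM in 1 of them. FPKM lay outside its own interval for 7.26% and 8.64% of named rows. Depth was inferred from the whole-fragment steps of the bounds on unnamed rows under 100 bases, and 3 fragments on 1 kb correspond to 0.109 FPKM in control and 0.0751 in the mutant. With 1 library per genotype no test was run. The calculation was tested on simulated data.

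Groups followed the genotype labels. The members and gene lists were chosen with earlier results of these data known. Text names came from a rule: every receptor, from each pathway list up to 3 genes per direction past 1.5-fold and the 2 highest in level, and examples from the 2 highest markers per list. Some genes this rule picks are not reported here. Sequences came from GENCODE M21 and RefSeq on GRCm38, and coordinates were not converted between builds. The scaling, pseudocount, filter, row choice and fold limit were varied, and an alternative that kept merged rows under their joined name was added after seeing the data. Python 3.11.15 with numpy 2.4.6, pandas 2.3.3 and matplotlib 3.10.9 was used.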

Additional observations from a re-analysis of the deposited data

How the results depend on the processing

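With 1 library per genotype, every value rests on a pair of libraries, and differences between animals, dissections or preparations cannot be told apart from genotype. No paired analysis was possible because each genotype had 1 library, and leaving out a replicate was not possible for the same reason. Of the 14 alternatives 6, the pseudocounts and scalings, alter the log2 ratios of *Erbb3* and *Egfr*, and in these *Erbb3* stayed below 0 and *Egfr* above 0. A minimum of 5 FPKM left out *Erbb2* and *Met*, and a minimum of 1 FPKM in both libraries left out *Met*.

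Rescaling all rows to a common sum moved the median of all genes to −0.61, and the log2 ratios became −0.18 for *Erbb2*, −1.52 for *Erbb3*, −0.56 for *Erbb4*, 0.38 for *Egfr*, −0.39 for *Fgfr1*, −0.60 for *Fgfr2*, −0.19 for *Fgfr3*, −0.34 for *Ntrk2*, −0.11 for *Ntrk3* and −0.38 for *Met*. Relative to that median *Egfr* was at 0.984 and *Erbb3* at −0.912. As deposited they were at 0.995 and −0.908, since the rescaling shifts nearly all genes alike. Under this rescaling 0 receptors were higher and 2 lower past 1.5-fold, with 640 genes higher and 7398 lower. List medians became −0.38 for other receptor tyrosine kinases, −1.13 for ErbB ligands, −0.41 for co-receptors, −0.68 for adaptors, −0.68 for inhibitors and −0.76 for ERK-responsive genes. Marker medians became −0.93 (OPC), −1.61 (OL), −0.40 (astrocyte), −0.42 (microglia), −0.77 (endothelial), −0.69 (mural), −0.23 (fibroblast), 0.13 (neuron) and 0.58 (red blood cell). This shift follows from the larger share of unnamed rows in the mutant sum.

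*Ntrk2* was at 0.28 after centring on the median, 0.28 after scaling to the 75th percentile and 0.26 after rescaling named rows, where *Fgfr2* was at −0.004. The OL median was −0.99 at the 75th percentile and −1.01 with named rows rescaled, where the astrocyte median was 0.20 and the fibroblast median 0.37. A limit of 2-fold left 0 receptors lower and 975 genes higher and 522 lower, and *Egfr* stayed past it. A minimum of 5 FPKM gave 1290 genes higher and a mural median of 0.27. Keeping merged rows under their joined name, chosen after seeing the data, gave −0.83 for OL and 0.49 for fibroblast markers.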

Other observations

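The remaining marker lists are given here, and some of their genes are receptor tyrosine kinases of the comparison set. With the deposited scaling, of 10 microglial markers none passed 1.5-fold, with a median log2 ratio of 0.24 and sums of 412 FPKM in control and 510 in the mutant. Of 8 endothelial markers 1 was higher and none was lower (median −0.11), but 0 were higher and 1 was lower after centring or scaling to the 75th percentile, and 0 were higher and 2 lower with named rows rescaled. Of 8 mural markers 1 was higher and 1 was lower (median −0.04), where the higher one, *Tagln*, a smooth muscle protein, was listed at 0 in control. *Gpr17*, a receptor of late OPCs, was at 235.0 and 155.8 FPKM, and *Ptprz1*, a phosphatase of OPCs and astrocytes, at 57.8 and 74.1.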
